A study of Mus musculus with 15 samples.

Results

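Among 7 cerebellum samples that lacked the chemokine receptor CXCR4 in the neural lineage, 3 had a low signal of the matrix gene Col1a1. The comparison of these 3 KO arrays with the other 4 KO arrays is described here. A KO array was called matrix-poor where the log2 signal of Col1a1, the brightest probe of this collagen gene, lay below 8 after all arrays were scaled to a common median. Col1a1 had log2 signals of 7.47, 6.91 and 6.51 on the matrix-poor arrays KO-6, KO-7 and KO-8, against 8.91, 8.99, 9.79 and 8.29 on the other KO arrays KO-2, KO-3, KO-4 and KO-5. KO-6 was therefore the array just inside the limit and KO-5 the array just outside it. These values chose the groups, so they are no finding, and Col1a1 was left out of every count that follows. The matrix-poor arrays are 3 of 7 KO arrays and of 15 arrays in all.

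Gene expression was measured in cerebella dissected on postnatal day 1 (P1) from C57BL/6 mice, with 1 Illumina MouseRef-8 v2 array for each of 7 KO and 8 WT samples. KO mice were Cxcr4 flox/flox; Sox1-Cre, in which the recombinase of the neural tube removes a floxed part of the receptor gene, and WT mice were littermates that carried no Cre. The 3 matrix-poor and the 4 other KO samples shared this genotype, strain, age and tissue in their labels. Replicates are described as biological, but the labels give neither litter, sex nor BeadChip, and they do not say whether a sample held RNA of 1 or several animals.

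The cerebellum is covered by the meninges, layers of fibroblasts that secrete collagens and small proteoglycans, carry organic ion transporters and release retinoic acid, bone morphogenetic proteins and CXCL12, the ligand of CXCR4. Blood vessels, with their endothelial cells, pericytes and smooth muscle, enter the tissue from there, and macrophages of the brain borders live along both. Sox1-Cre acts in the neural tube, from which neurons and astroglia arise. Whether any meningeal fibroblasts, vessel cells or macrophages of these samples carried the deletion was not measured.

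Cxcr4 itself did not separate the KO groups. Its log2 signals were 6.86, 6.54 and 6.55 on the matrix-poor arrays and 6.42, 6.82, 6.51 and 6.47 on the other KO arrays, against 8.77 to 9.76 on the 8 WT arrays. All 7 KO arrays therefore lay below all WT arrays, and the KO groups overlapped.

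The matrix-poor arrays were also set apart by features other than matrix genes. Their median signals before scaling were 97.3 to 109.8, below the 113.4 to 122.9 of the other KO arrays, against 101.2 to 120.8 on WT arrays. They carry the array numbers 6 to 8, whereas the other KO arrays carry 2 to 5. Ttr, the main transcript of the choroid plexus, had log2 signals of 7.17, 8.59 and 7.30 on the matrix-poor arrays, against 9.53 on KO-4 and 15.57, 15.59 and 15.87 on KO-2, KO-3 and KO-5. KO-7 was the only KO array with a high signal of Xist, the RNA of the inactive X chromosome, at 8.07 against 6.26 to 6.43 on the other 6 KO arrays. Xist thus did not separate the groups. Signal strength, array number and Ttr moved with the groups. Each main gene list below is therefore also given against KO-4, the other KO array that was low in Ttr. A second reference is KO-5, the one nearest in array number but also, at 8.29, the lowest of the other KO arrays in Col1a1. In that comparison, array number and Col1a1 level cannot be told apart. The difference between WT arrays numbered 5 to 8 and 1 to 4 stands beside them. The part of signal strength, array number and choroid plexus in the results was not tested.

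Of 16592 genes, 108 (0.651%) were lower on matrix-poor than on other KO arrays by at least 1 on the log2 scale without overlap between the groups, and 2 genes (0.0121%) were higher by as much. At any size, 1009 genes (6.08%) were lower without overlap and 2086 (12.6%) were higher, and the counts of each list below are to be read against these shares. The groups were chosen from these same arrays, so the counts are a description and carry no test. The median difference over all genes was 0.06, and it was -0.14 without normalization. The balance of small differences turned with the scaling, since lower genes made up 32.6% of the genes without overlap, against 95.6% without normalization and 45.5% after quantile normalization.

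The 108 lower genes had a median difference of -1.38, and 22 of them differed by at least 2. On 83 of them all matrix-poor arrays lay below all 8 WT arrays. The median difference from WT was -1.16 on the matrix-poor arrays and 0.26 on the other KO arrays. The mean of the 4 other KO arrays was below the WT mean on 20 of the 108 genes. For 33 genes the matrix-poor mean lay below the common median of 6.81, where background limits how low a signal can read. In bulk RNA, fewer cells of a type and less RNA per cell cannot be told apart.

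The 3 matrix-poor arrays were graded among themselves. KO-8 was the lowest of them on 67 of the 108 genes, KO-7 on 21 and KO-6 on 20, and KO-6 was the highest on 63. Among the other KO arrays, KO-5 was the lowest on 60 genes and KO-4 on 36, while KO-2 was the highest on 46 and KO-4 on 38. The matrix-poor mean was lower than KO-4 by at least 1 on 77 of the 108 genes, lower than KO-5 on 69 and lower than both on 40. WT arrays numbered 5 to 8 were lower than those numbered 1 to 4 by at least 1 on 0 of the 108 genes, with a median difference of 0.0043.

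Of the 108 genes, 22 were among the 101 measured genes of 6 meningeal lists, 7 among 75 genes of 3 vessel lists, 5 among 34 genes of 2 macrophage lists and 7 among 17 choroid plexus genes. These counts stand beside 0.651% of all genes. Of 86 neuronal genes 0 were among the 108, a count close to that share. In all, 45 were in some list and 63 in none.

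**Figure D1:**
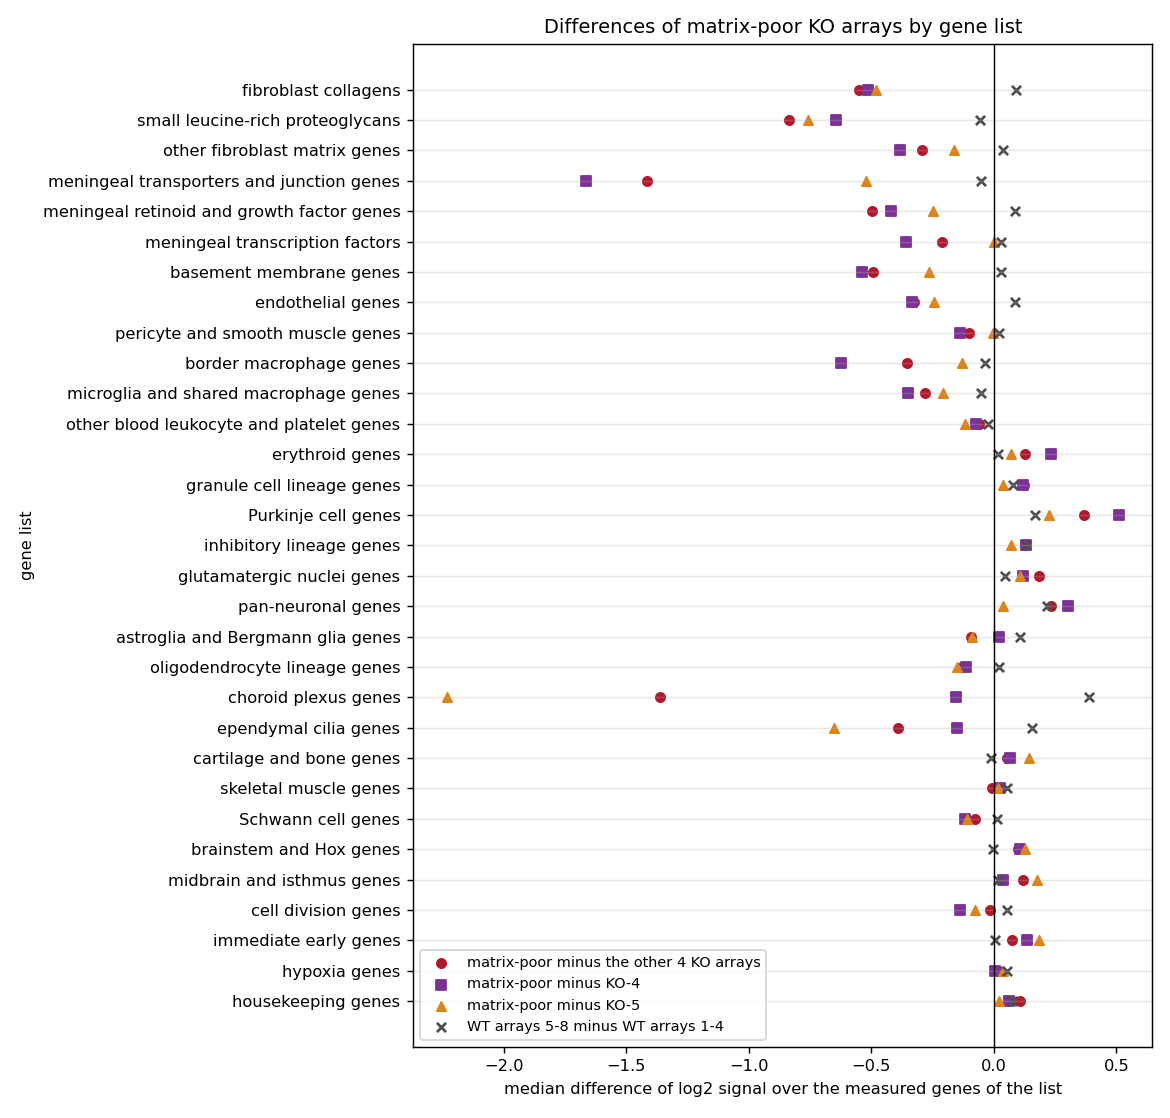
Median difference of log2 signal (x axis) over the measured genes of each of 31 lists (y axis). Circles give matrix-poor minus the other 4 KO arrays, squares matrix-poor minus KO-4, triangles matrix-poor minus KO-5 and crosses WT arrays numbered 5 to 8 minus those numbered 1 to 4. Meningeal transporters reach -1.41 by the circle and -0.52 by the triangle, whereas choroid plexus genes reach -2.23 against KO-5 and -0.15 against KO-4.

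The small leucine-rich proteoglycans, which coat and space collagen fibrils, gave the largest differences among matrix genes. Dcn encodes decorin and lies on chromosome 10. It had log2 signals of 9.78, 8.69 and 6.53 on KO-6, KO-7 and KO-8, against 12.19, 11.88, 12.45 and 11.25 on KO-2 to KO-5 and 10.83 to 12.38 on WT arrays. The 3 matrix-poor arrays were spread over more than 3 log2 units, and all lay below every other array. The difference between the KO groups was -3.61 ± 0.99 (SE, n = 3 and 4). A dimmer second probe of Dcn differed by -2.61.

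Lum, the gene of lumican, is also on chromosome 10 and is one of the markers used to check the groups. It had log2 signals of 7.06, 6.46 and 6.41 on the matrix-poor arrays, against 8.01, 8.91, 9.13 and 8.05 on the other KO arrays and 8.09 to 9.29 on WT arrays. All matrix-poor arrays were lower than all others, and the KO groups differed by -1.88 ± 0.36. Ogn, the gene of osteoglycin, read 6.60, 6.32 and 6.23 on the matrix-poor arrays, against 8.61 to 9.53 on the other KO arrays, a difference of -2.71 ± 0.22. Bgn, the gene of biglycan, differed by -1.50 ± 0.16 and lay at 9.47 to 9.96 on the matrix-poor arrays, so that this proteoglycan was still well above the common median there. Of 10 measured members of the list, 5 (50%) were lower without overlap and 0 higher, against 6.08% and 12.6% of all genes, with a median of -0.84, against -0.65 from KO-4 and -0.76 from KO-5.

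Collagen genes and the enzymes that mature collagen followed with smaller differences. Pcolce, an enhancer of procollagen cleavage, had log2 signals of 6.73, 6.47 and 6.15 on the matrix-poor arrays, against 8.30, 8.35, 8.50 and 8.21 on the other KO arrays. The 4 other KO arrays agreed to within 0.3 for this gene, and the difference was -1.89 ± 0.18. Col6a1, a chain of collagen VI, read 9.11, 8.93 and 8.87 on the matrix-poor arrays, against 10.97, 10.58, 11.22 and 9.99 on the other KO arrays, a difference of -1.72 ± 0.28. Lox, which crosslinks collagen, differed by -1.40 ± 0.33, but by -0.56 from KO-5. Col3a1 and Col1a2, the partners of Col1a1 in fibrils, differed by -0.60 and -0.77, with every signal of theirs on the matrix-poor arrays below the common median. For Col3a1, KO-2, KO-3 and KO-5 also lay below it, at 6.79, 6.77 and 6.62, so background limits the difference that can be read. Among 18 measured genes of this list, 11 (61.1%, against 6.08% of all genes) were lower without overlap and 0 higher, with a median of -0.55 (-0.51 from KO-4 and -0.48 from KO-5).

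Among 20 other fibroblast matrix genes, 10 (50%, against 6.08% of all genes) were lower without overlap and Mfap2, a microfibril component, was higher by 0.34. Mgp, an inhibitor of calcification, had log2 signals of 6.62, 6.87 and 6.80 on the matrix-poor arrays, against 11.11, 10.05, 10.83 and 8.95 on the other KO arrays, a difference of -3.47 ± 0.49. It stood alone in this list, since the next were Eln, the gene of elastin, with -0.91 ± 0.19, and Mfap5 with -0.65. Sparc, a calcium-binding matrix protein that endothelial cells and glia also make, differed by -0.58 ± 0.06 at signals of 11.61 to 11.78 on the matrix-poor arrays, against 12.20 to 12.31 on the other KO arrays. The list median was -0.29. Of the matrix genes, 5 of 10 proteoglycans, 7 of 18 collagen genes and 9 of 20 others overlapped between the KO groups. Over all genes, 13497 of 16592 overlapped. The label of matrix-poor thus does not extend to every matrix gene.

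Transporters and junction genes of the meninges had the lowest list median of all fibroblast lists, -1.41 over 17 measured genes, with 9 (52.9%, against 6.08% of all genes) lower without overlap and 0 higher. With the probes of a gene averaged instead of the brightest taken, the list median was -0.75. Slc22a6, the organic anion transporter OAT1 on chromosome 19, is the third marker. It had log2 signals of 6.51, 6.13 and 6.17 on the matrix-poor arrays, against 8.62, 8.21, 9.18 and 7.00 on the other KO arrays and 7.62 to 9.75 on WT arrays. KO-5 lay between the matrix-poor arrays and the rest, below every WT array, and the difference was -1.98 ± 0.48.

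Slc13a4, a sulfate transporter, read 7.11, 6.81 and 6.64 on the matrix-poor arrays, against 11.76, 11.02, 10.42 and 10.92 on the other KO arrays and 8.52 to 11.10 on WT arrays. Its difference of -4.18 ± 0.31 was the largest of any gene outside the choroid plexus list, and it was similar from KO-4 (-3.56) and from KO-5 (-4.07). On WT-4, WT-6 and WT-8, the WT arrays high in Ttr, Slc13a4 read 11.01, 11.10 and 10.77, against 8.52 to 10.15 on the rest. Slc6a13, a GABA and taurine transporter, read 8.27, 7.41 and 6.40 on the matrix-poor arrays, against 11.45, 10.47, 11.32 and 9.22 on the other KO arrays. KO-5 was again the lowest of the other KO arrays, with a difference of -1.86 from it against -3.26 ± 0.74 from all 4.

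Cldn11, a claudin of the arachnoid barrier and of oligodendrocytes, had log2 signals of 9.76, 9.04 and 8.58 on the matrix-poor arrays, against 12.25, 12.48, 12.84 and 11.54 on the other KO arrays, a difference of -3.15 ± 0.44. Ptgds, a prostaglandin D synthase made in the leptomeninges, the choroid plexus and oligodendrocytes, read 7.80, 7.62 and 6.87 on the matrix-poor arrays, against 12.30, 10.76, 11.97 and 8.69 on the other KO arrays. Here the other KO arrays were themselves spread widely, and the difference of -3.50 ± 0.86 shrank to -1.26 against KO-5 alone. Gjb2, a connexin of meningeal fibroblasts, differed by -2.15 ± 0.35, by -3.06 from KO-4 and by -1.52 from KO-5. The list median was -1.66 against KO-4 and -0.52 against KO-5, so that it moved with the choice of KO array more than that of the collagens.

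**Figure D2:**
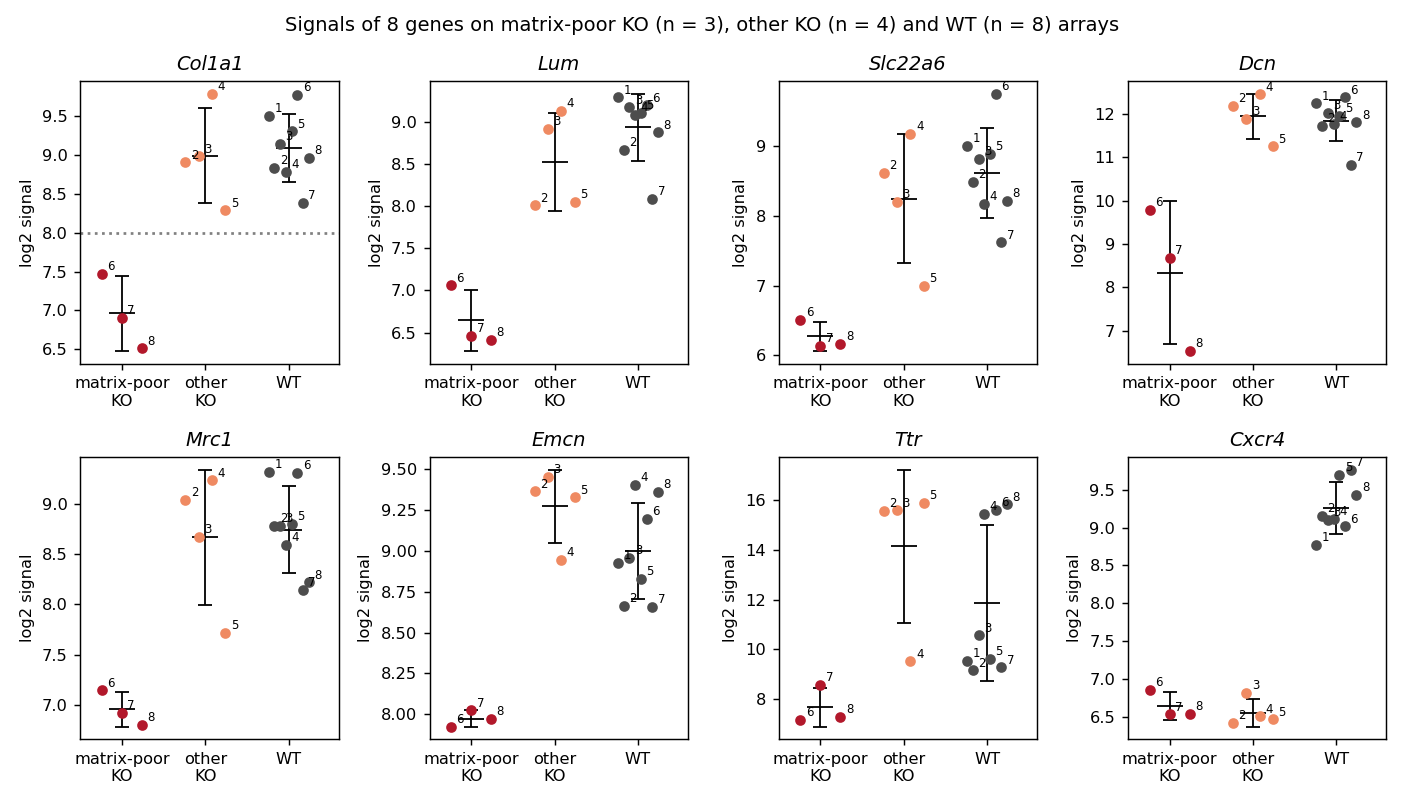
Log2 signals (y axes) of 8 genes on matrix-poor KO (n = 3), other KO (n = 4) and WT (n = 8) arrays, with array numbers beside the points. Horizontal lines give means and bars SD, and the dotted line marks the limit of 8 that chose the groups. Dcn spans 6.53 to 9.78 on the matrix-poor arrays and stays above 10.83 on all WT arrays, whereas Ttr is low on the matrix-poor arrays, on KO-4 and on 5 WT arrays.

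Growth factors and retinoid genes of the meninges were lower in part. Igf2, a fetal growth factor made by meninges and vessels, had log2 signals of 12.60, 12.12 and 11.51 on the matrix-poor arrays, against 14.72, 14.35, 14.60 and 13.99 on the other KO arrays and 13.26 to 14.83 on WT arrays. Even on the matrix-poor arrays this was a bright probe, and the difference was -2.34 ± 0.35. Bmp4 and Bmp7, bone morphogenetic proteins of the meninges and roof plate, differed by -1.76 ± 0.22 and -1.21 ± 0.20. Apod, a lipid carrier of fibroblasts and pericytes, differed by -1.88 ± 0.58 and by -0.90 from KO-5.

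Cxcl12, the ligand of the deleted receptor, read 10.09, 9.75 and 9.74 on the matrix-poor arrays, against 10.69, 10.78, 10.99 and 10.60 on the other KO arrays and 10.25 to 11.58 on WT arrays. The KO groups did not overlap, with a difference of -0.91 ± 0.14, and the other KO arrays lay within the range of WT arrays. Aldh1a2 and Crabp2, which make and bind retinoic acid, overlapped between the KO groups through KO-5, which read 6.61 and 6.59. Without overlap, 10 of 22 genes of this list (45.5%, against 6.08% of all genes) were lower and 0 higher, with a median of -0.50 (-0.25 from KO-5).

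Transcription factors of the meninges differed least among the fibroblast lists. Foxc1, which is required for meningeal development, had log2 signals of 7.77, 7.71 and 7.38 on the matrix-poor arrays, against 9.33, 8.70, 9.19 and 8.01 on the other KO arrays, a difference of -1.19 ± 0.32 that was -0.40 against KO-5. Twist1 and Osr1, regulators of mesenchyme, differed by -0.54 and -0.46. Of 14 measured factors, 4 (28.6%, against 6.08% of all genes) were lower without overlap, Foxp1 was higher by 0.38, and the median was -0.21. It was -0.36 from KO-4 and -0.001 from KO-5. Over the 6 meningeal lists together, 49 of 101 genes (48.5%) were lower and 2 (1.98%) higher without overlap, against 6.08% and 12.6% of all genes, with a median of -0.44 that stayed below 0 under every scaling tried.

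Genes of vessels were lower by less. Emcn, a surface sialomucin of veins and capillaries, had log2 signals of 7.93, 8.02 and 7.97 on the matrix-poor arrays, against 9.36, 9.45, 8.94 and 9.33 on the other KO arrays and 8.66 to 9.40 on WT arrays. The 3 matrix-poor arrays nearly coincided, and the difference was -1.30 ± 0.12. Esm1, a secreted product of endothelial tip cells, differed by -1.26 ± 0.14 and Itm2a by -1.13 ± 0.21. Cdh5 and Pecam1, adhesion proteins of all endothelial cells, differed by -0.45 and -0.30, and the groups overlapped for Pecam1. Kdr, the main VEGF receptor, was higher by 0.23 at signals below the common median. Over 35 endothelial genes, 10 (28.6%) were lower and 3 (8.57%) higher without overlap, against 6.08% and 12.6% of all genes, with a median of -0.33 that was -0.33 from KO-4 and -0.25 from KO-5.

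Smooth muscle and pericyte genes were divided. Acta2, the smooth muscle actin, read 7.04, 6.75 and 6.52 on the matrix-poor arrays, against 9.37, 9.25, 10.51 and 8.82 on the other KO arrays, a difference of -2.72 ± 0.39, and Vtn, the gene of vitronectin in pericytes, differed by -1.50 ± 0.29. Pdgfrb and Rgs5, both markers of pericytes, overlapped between the KO groups with differences of -0.16 and -0.34. Of 21 genes of this list, 4 (19.0%, against 6.08% of all genes) were lower without overlap and 0 higher, with a median of -0.10 that was -0.003 from KO-5.

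Basement membrane genes, which vessels and the pial surface share, had a median of -0.49 over 19 genes, with 10 (52.6%, against 6.08% of all genes) lower and 1, Agrn, higher. Nid2, the gene of nidogen 2, read 8.81, 8.44 and 8.65 on the matrix-poor arrays, against 9.96, 10.16, 10.18 and 9.71 on the other KO arrays, a difference of -1.37 ± 0.15. Col15a1 read 6.97, 7.02 and 6.78 on the matrix-poor arrays and 7.24, 8.10, 7.98 and 7.51 on the other KO arrays, with 8.10 to 8.70 on WT arrays. All 3 vessel lists together had a median of -0.30 over 75 genes, with 24 (32%) lower and 4 (5.33%) higher, against 6.08% and 12.6% of all genes.

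Genes of border macrophages were lower on the matrix-poor arrays, but KO-5 lay close to them. Mrc1, the mannose receptor, had log2 signals of 7.14, 6.92 and 6.80 on the matrix-poor arrays, against 9.05, 8.68, 9.24 and 7.72 on the other KO arrays and 8.14 to 9.33 on WT arrays. KO-5 lay below all WT arrays, so that the difference was -1.71 ± 0.35 from all 4 and -0.76 from KO-5. Dab2, F13a1 and Pf4, further genes of these macrophages, differed by -1.40, -1.38 and -1.01. Lyve1, Cd163 and Stab1 overlapped between the KO groups. Of 14 genes, 7 (50%, against 6.08% of all genes) were lower and 1 higher without overlap, with a median of -0.36 that was -0.62 from KO-4 and -0.13 from KO-5.

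Genes of microglia and those they share with other macrophages had a list median of -0.28, and of -0.21 from KO-5. Lyz2, a lysozyme of myeloid cells, differed by -1.30 ± 0.19, and its 3 matrix-poor signals of 6.57 to 6.76 were below the common median. C1qc and C1qb, complement components of microglia, differed by -0.81 ± 0.13 and -0.64 ± 0.18, and Cx3cr1, a chemokine receptor of microglia, by -0.55. The homeostatic marker P2ry12 lay below the common median on all arrays, with a difference of 0.01. The list had 7 of 20 genes (35%, against 6.08% of all genes) lower without overlap and 0 higher. S100a8, a neutrophil gene, differed by -1.03 ± 0.38, but the list of other blood leukocyte and platelet genes to which it belongs had a median of -0.06 over 16 genes and the erythroid genes one of 0.13, which was -0.08 without normalization.

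Neuronal genes were slightly higher on the matrix-poor arrays, by a median of 0.18 over 86 genes of 5 lists, which turned to -0.03 without normalization, where all genes had -0.14. Of the 86, 20 were higher and 6 lower without overlap, shares of 23.3% and 6.98% that stand beside 12.6% and 6.08% over all genes. The median of 0.18 stands beside 0.06 over all genes. It was 0.08 from KO-5 alone, and WT arrays numbered 5 to 8 were themselves higher than those numbered 1 to 4 by a median of 0.13 over the same genes.

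Purkinje cell genes had the highest list median, 0.37 over 16 genes, with 9 (56.2%, against 12.6% of all genes) higher and 1 (6.25%, against 6.08%) lower without overlap. Lhx5, a LIM homeobox factor of Purkinje cell precursors, had log2 signals of 9.49, 9.71 and 9.26 on the matrix-poor arrays, against 8.53, 8.72, 8.64 and 9.08 on the other KO arrays and 9.28 to 9.77 on WT arrays. The matrix-poor arrays lay close to the level of WT and the other KO arrays below it, with a difference of 0.74 ± 0.18. Ebf2, which acts in Purkinje cell subtypes, read 10.27, 10.34 and 10.37 on the matrix-poor arrays, against 9.84, 9.42, 9.53 and 9.86 on the other KO arrays and 9.73 to 10.32 on WT arrays.

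Pcp2, a G protein regulator specific to Purkinje and retinal bipolar cells, read 12.07, 11.89 and 11.84 on the matrix-poor arrays, against 11.05, 11.61, 11.33 and 11.69 on the other KO arrays and 11.23 to 11.82 on WT arrays. Its difference of 0.51 ± 0.16 was 0.24 against KO-5, and WT arrays numbered 5 to 8 exceeded those numbered 1 to 4 by 0.37. Dab1, the intracellular mediator of reelin signalling, differed by 0.50 ± 0.06. The list median was 0.51 from KO-4 and 0.23 from KO-5, and 0.16 without normalization. Over the same genes, WT arrays numbered 5 to 8 exceeded those numbered 1 to 4 by a median of 0.17. Of the 16 genes, 3 had a negative difference. Gng13 differed by -0.37 without overlap, and Atp2a3 and Pcp4 by -0.26 and -0.11 with overlap.

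In other neuronal lists the differences were smaller. Tfap2a, a factor of inhibitory precursors, was higher by 0.64 ± 0.17, while Ptf1a, which specifies the inhibitory lineage, differed by -0.39 ± 0.13, with 7.30 to 7.57 on the matrix-poor arrays, against 7.62 to 8.05 on the other KO arrays and 7.95 to 8.62 on WT arrays. All KO arrays but KO-5 lay below the lowest WT signal of Ptf1a, and the matrix-poor arrays were the farthest from it. Barhl1, a homeobox gene of granule cell precursors, read 11.87, 11.84 and 11.98 on the matrix-poor arrays, against 11.46, 11.46, 11.55 and 11.60 on the other KO arrays and 11.00 to 11.34 on WT arrays, so that the matrix-poor arrays were farther from WT. Zic1, Neurod1 and Atoh1, further granule lineage genes, overlapped between the KO groups.

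Among pan-neuronal genes, Ina, an intermediate filament of young neurons, averaged 11.97 ± 0.026 (SD, n = 3) on the matrix-poor arrays, against 10.93, 10.97, 10.77 and 11.93 on the other KO arrays. KO-5 was level with the matrix-poor arrays, and the difference of 0.82 ± 0.26 was 0.04 against it. Uchl1 and Stmn3, which are abundant in neurons, differed by 0.67 and 0.50, and by 0.13 and 0.27 from KO-5. Of 24 pan-neuronal genes, 3 (12.5%) were higher and 1 (4.17%), Syn2 (-0.37), lower without overlap, against 12.6% and 6.08% of all genes. The pan-neuronal median of 0.23 was 0.04 against KO-5 and 0.22 between the WT arrays numbered 5 to 8 and 1 to 4. Snap25 and Tubb3 read close to or below the common median on all arrays and overlapped between the KO groups.

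**Figure D3:**
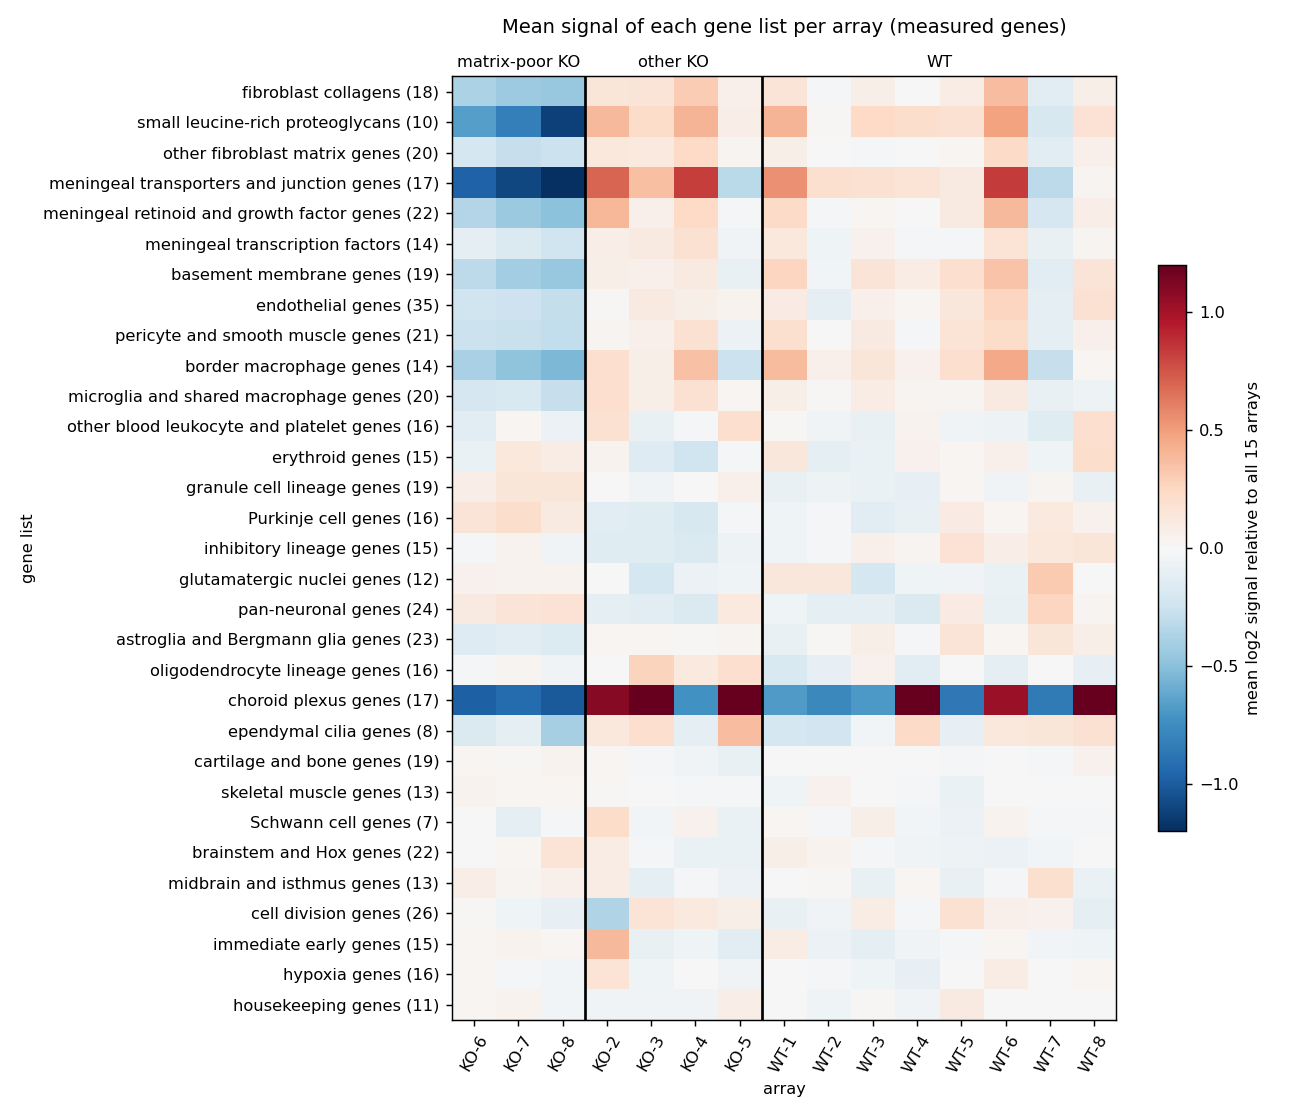
Mean log2 signal of each gene list on each array (colour, relative to the mean of all 15 arrays, with colours capped at 1.2), with the number of measured genes in brackets. Columns run from the 3 matrix-poor KO arrays through the 4 other KO arrays to the 8 WT arrays. Meningeal transporters are lowest on the matrix-poor arrays and below the average on KO-5 and WT-7, and choroid plexus genes are high on KO-2, KO-3, KO-5, WT-4, WT-6 and WT-8.

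The 10 genes with the largest increase included few with a shared role. Pcdh10, a protocadherin, read 10.11, 10.05 and 10.25 on the matrix-poor arrays, against 9.50, 8.85, 8.71 and 9.13 on the other KO arrays and 9.19 to 9.76 on WT arrays, so that the matrix-poor arrays exceeded every other array, and the difference was 1.09 ± 0.18. Fam171a1 differed by 1.18 ± 0.33 but by only 0.25 from KO-4. Sst and Cartpt, genes of neuropeptides, were both higher by 0.84, and Lrrtm1, a synaptic adhesion gene, by 0.85 ± 0.21. En1 and Fgf8, patterning genes of the midbrain and isthmus, were higher by 0.63 ± 0.14 and 0.50 ± 0.16. They were the only 2 of 13 measured genes of their list higher without overlap (15.4%, close to the 12.6% of all genes). The list median was 0.12, and 4 of the 13 differences were negative, with Otx1 at -0.67 and Gata2 at -0.59. Of the genes higher by at least 0.5 without overlap, 137 in all, 41 were also higher than KO-5 by at least 0.5, and on 121 of the 137 the WT arrays numbered 5 to 8 were higher than those numbered 1 to 4, as they were on 62.9% of all genes.

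Of 23 astroglial genes, 7 (30.4%) were lower and 1 (4.35%) was higher without overlap, against 6.08% and 12.6% of all genes. Their mean, relative to all 15 arrays, was -0.16 to -0.13 on the matrix-poor arrays, against 0.01 to 0.03 on the other KO arrays. Aqp4, the water channel of astrocyte endfeet at vessels and the pial surface, had log2 signals of 9.96, 10.09 and 10.01 on the matrix-poor arrays, against 11.26, 11.13, 11.39 and 11.00 on the other KO arrays and 10.33 to 11.17 on WT arrays. All matrix-poor arrays were lower than all others, with a difference of -1.17 ± 0.09 between the KO groups, and KO-2 and KO-4 lay above the WT range. Gja1, the connexin of astroglia and of meningeal fibroblasts, differed by -1.06 ± 0.21 and Gpr37l1, a receptor of astroglia, by -1.11 ± 0.23. Slc1a3, Sox9 and Hes5, general astroglial genes, overlapped between the KO groups with differences of -0.14, -0.09 and 0.01. The astroglial list had a median of -0.09, and that of 16 oligodendrocyte genes -0.13.

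Choroid plexus genes had a list median of -1.36, next to the -1.41 of the meningeal transporters. With probes averaged, the medians were -1.36 for choroid plexus genes and -0.75 for meningeal transporters. KO-4 was close to the matrix-poor arrays in choroid plexus genes. Clic6, a chloride channel protein of this epithelium, had log2 signals of 7.03, 6.94 and 6.90 on the matrix-poor arrays, against 12.17, 11.84, 7.45 and 12.47 on the other KO arrays and 7.25 to 11.98 on WT arrays. KO-4 was far below the other 3 arrays of its group and 0.49 above the matrix-poor mean. Aqp1, the water channel of the same cells, differed by -3.45 ± 0.95 and from KO-4 by -0.62, and Folr1 and Kcne2 were higher on the matrix-poor arrays than on KO-4 by 0.18 and 0.31. Of 17 genes, 9 (52.9%, against 6.08% of all genes) were lower without overlap, with a list median of -0.15 from KO-4. Ependymal cilia genes, of which 4 of 8 (50%) were lower without overlap, had a median of -0.39, and -0.15 from KO-4. The meningeal lists did not share this pattern, since their joint median was -0.50 from KO-4 and -0.29 from KO-5.

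Genes of cartilage and bone, skeletal muscle and Schwann cells, tissues that lie next to the cerebellum, had list medians of 0.05, -0.01 and -0.08. Of 19 cartilage and bone genes 0 were lower and 2 higher without overlap, and of 13 muscle genes 0 and 0. Of 7 Schwann cell genes 2 (28.6%) were lower and 1 higher, against 6.08% and 12.6% of all genes. The difference was negative for 6 of these 7 genes. Hypoxia genes had a median of 0.02, immediate early genes 0.07, cell division genes -0.02 and housekeeping genes 0.11. Of 11 housekeeping genes, 2 (18.2%) were lower and 3 (27.3%) higher without overlap, against 6.08% and 12.6% of all genes. Of 16 hypoxia genes, 2 (12.5%) were lower and 1 (6.25%) higher. Of 15 immediate early genes, 0 were lower and 1 (6.67%) higher, and of 26 cell division genes 0 and 2 (7.69%). The housekeeping median was -0.10 without normalization.

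Outside the lists, 63 of the 108 lower genes remained, of which 7 are given as examples picked with their values in view. Tgfbi, a matrix adaptor induced by TGF-beta, read 6.91, 6.86 and 6.52 on the matrix-poor arrays, against 9.36, 9.26, 8.68 and 9.30 on the other KO arrays, a difference of -2.39 ± 0.20. Aebp1, a collagen-binding protein, differed by -2.29 ± 0.17, and Mmp2, a gelatinase of fibroblasts, read 8.01 to 8.16 on the matrix-poor arrays, against 9.04 to 9.50 on the other KO arrays. The TGF-beta receptor genes Tgfbr2 and Tgfbr3 differed by -1.13 and -1.31. Msx1, a homeobox gene of the roof plate and dorsal mesenchyme, read 6.97, 6.87 and 6.79 on the matrix-poor arrays, against 9.93, 10.55, 9.07 and 10.52 on the other KO arrays, a difference of -3.14 ± 0.35. Ccn2, a matricellular growth factor, differed by -1.98 ± 0.73, with KO-2 alone at 12.10 and the rest of the other KO arrays at 8.91 to 9.89.

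The WT arrays, which took no part in choosing the groups, allowed a test of whether the same genes follow Col1a1 within 1 genotype. Col1a1 ranged from 8.39 to 9.78 over the 8 WT arrays, and none was matrix-poor by the limit of 8. The slope of each gene on the Col1a1 log2 signal was fitted in limma across these arrays, with Benjamini-Hochberg adjustment over 16592 genes. Of these, 84 (0.506%) rose with Col1a1 at an adjusted p under 0.05, and 0 fell, although 507 rose and 445 fell at an unadjusted p under 0.05.

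Of the 108 genes that were lower on matrix-poor KO arrays, 42 rose with Col1a1 across WT arrays. These are 38.9% of the 108 and 50% of the 84. The slope was above 0 for 105 of the 108, with a median of 0.67, against 40.6% and -0.03 over all genes. The 108 genes were selected by size. Of all 1009 genes that were lower without overlap at any size, 61 (6.05%) rose in limma. Of these 1009, 60.75% had a slope above 0, and their median slope was 0.046. Of the 2086 genes that were higher without overlap at any size, 0 passed the test in limma (18 rose and 47 fell at an unadjusted p under 0.05), and 34.9% had a slope above 0. A slope of 1 means that a gene changed by as much as Col1a1 on the log2 scale.

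Slc22a6 had the lowest p of all genes, with a slope of 1.42 ± 0.14 (SE, n = 8, limma, adjusted p = 0.000804). Acta2 had a slope of 1.51 ± 0.16 (limma, adjusted p = 0.000804) and Gjb2 one of 1.19 ± 0.12 at the same adjusted p. Slc6a13 rose by 1.34 ± 0.17 per unit of Col1a1 (limma, adjusted p = 0.0019), Ogn by 1.25 ± 0.16 (limma, adjusted p = 0.00247), Igf2 by 0.99 ± 0.14 (limma, adjusted p = 0.00333) and Dcn by 0.99 ± 0.14 (limma, adjusted p = 0.0048). Cxcl12 rose with a slope of 1.02 ± 0.13 (limma, adjusted p = 0.0019). Lum had a slope of 0.74 ± 0.16 and missed the threshold (limma, adjusted p = 0.0826), as did Slc13a4 with 1.02 ± 0.59 (limma, adjusted p = 0.939), whose WT arrays ranged from 8.52 to 11.10.

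By lists, 18 of 101 meningeal, 8 of 75 vessel and 9 of 34 macrophage genes rose across WT arrays, against 0.506% of all genes. The counts of 0 of 86 neuronal and 0 of 39 glial genes in limma are close to that share. At an unadjusted p under 0.05, 6 neuronal genes rose and 7 fell, and 1 glial gene rose and 3 fell. Border macrophage genes held 8 of the 9, namely Mrc1, Lyve1, Cd163, F13a1, Pf4, Ms4a7, Stab1 and Dab2, out of 14 measured, although Lyve1, Cd163, Stab1 and Ms4a7 overlapped between the KO groups. Among vessel genes, Nid2, Acta2, Vtn and Itm2a rose in WT, whereas Emcn had a slope of 0.16 (limma, adjusted p = 0.991) and Esm1 one of 0.52 (limma, adjusted p = 0.978). Aqp4 likewise had a slope of 0.22 (limma, adjusted p = 0.979). Neuronal genes had slopes above 0 in 25 of 86 cases (29.1%) and pan-neuronal genes in 3 of 24 (12.5%), against 40.6% of all genes. No choroid plexus gene of 17 passed in limma, also at an unadjusted p under 0.05, and Ttr had a slope of 1.45 with an SE of 1.84.

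**Figure D4:**
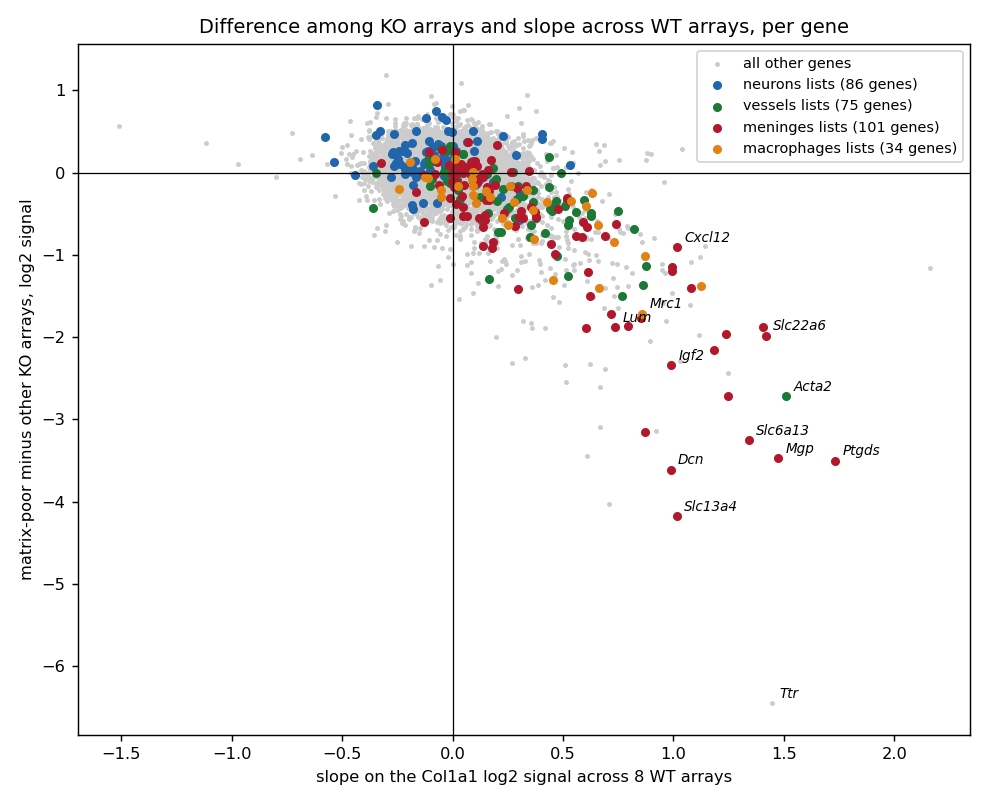
Each point is 1 gene. The x axis gives its slope on the Col1a1 log2 signal across 8 WT arrays, and the y axis its difference of log2 signal between matrix-poor and other KO arrays. Genes of the meninges, vessels, macrophages and neurons lists are coloured. Meningeal genes such as Slc6a13 (1.34, -3.26) and Ptgds (1.73, -3.50) lie at the lower right and neuronal genes around 0.

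The WT calls leaned on the arrays at the ends of the Col1a1 range. WT-6 was the highest at 9.78 and WT-7 the lowest at 8.39, and 53 genes rose without WT-1, 25 without WT-6 and 13 without WT-7. Among the 108 genes of the KO comparison, 22 rose without WT-1, 16 without WT-6 and 8 without WT-7. Of 22 named genes that rose, Slc22a6, Acta2, Slc6a13 and Col6a2 passed on leaving out each of the 8 arrays. With Lum in place of Col1a1, 9 genes rose, 7 of them among the 108. WT-5 and WT-6 were the WT arrays with a high Y-linked Eif2s3y, which had a slope of 2.16 ± 0.73 on Col1a1 (limma, adjusted p = 0.563), and both were among the 3 WT arrays highest in Col1a1. The part of sex was not tested. With the array numbers as a term, 116 genes rose, 48 of them among the 108.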

How the data were processed

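The authors amplified RNA, labelled it with biotin, hybridized it to BeadChips and extracted signals with GenomeStudio. They deposited a table of signal intensity for 25697 probes without normalization, and a table of log2 values, which equal the log2 intensity after both are centred on array medians, to within 6.2e-05. No detection p was used, and precision is limited by the number of arrays. The log2 intensity of each array was shifted to 1 median for all arrays. Of the probes, 23978 had 1 gene symbol, 0 several and 1719 none, with symbols updated by a RefSeq table of GRCm38.p6 (23962 matched). The brightest probe stood for a gene (16593 genes, 4777 with several probes).

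KO groups were found by the Col1a1 limit of 8, and KO differences were described without a test, as means with SE. WT slopes were fitted in limma 3.58.1 (lmFit, eBayes, both sides) in R 4.3.3, with a threshold of 0.05. Where nothing says that samples came from separate animals, p-values measure only the spread between these samples. Other values came from Python 3.11.15 with numpy 2.4.6 and pandas 2.3.3. Drawing used matplotlib 3.10.9.

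The members, the 32 gene lists and the tests were chosen with earlier results of these data known. Lists came from general knowledge and held 601 genes, 536 of them measured. The rule for named genes took the 3 markers and Cxcr4, the 15 largest decreases, the 10 largest increases and the 4 largest differences of each list among genes without overlap, and a few defining markers. Other genes named here, such as Cxcl12, Gjb2, Col3a1, Col1a2, Cdh5, Pecam1, Kdr, Pdgfrb, Rgs5, Lyve1, Cd163, Stab1, Cx3cr1, P2ry12, Slc1a3, Tgfbi, Aebp1, Mmp2, Tgfbr2, Tgfbr3 and Ccn2, were picked with their values in view. The scripts were tested on simulated data for the WT slope over 16592 genes, where 88 of 100 genes with a slope of 1, 31 of 100 with a slope of 0.5 and 3 of 16392 without a slope were called. Alternatives were unnormalized values, quantile normalization, a normexp correction (offset 50), the log2 table as deposited, the mean of probes, a filter on dim genes, other limits, KO-5 as the only comparison, leaving out each array, Lum or other terms in the WT fit, trend and robust settings and an adjusted p of 0.1. The comparison with KO-4 alone and the centring on all genes were added after seeing the data.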

Additional observations from a re-analysis of the deposited data

Results flagged for a closer look

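In groups of 4 to 8 arrays, 100 sets of values were checked for an array whose gap to its nearest neighbour exceeded Dixon's limit, which chance exceeds in about 1 of 20 groups, and 10 did so. For 4 genes, 3 of them on the choroid plexus list, KO-4 stood far below the other 3 arrays of its group. Ttr had a log2 signal of 9.53 on KO-4, against 15.57 to 15.87 on KO-2, KO-3 and KO-5, Clic6 7.45 against 11.84 to 12.47, Aqp1 7.22 against 10.86 to 11.23, and Defb11, a defensin gene, 6.26 against 10.16 to 10.36. The 3 matrix-poor arrays were below KO-4 for Ttr, Clic6, Aqp1 and Defb11. Among WT arrays, Dcn was lowest on WT-7, at 10.83 against 11.72 to 12.38 on the others, the array that also had the lowest Col1a1.

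Means of gene lists, relative to all 15 arrays, set apart KO-2 for immediate early genes (0.39, against -0.13 to -0.05 on the other 3 KO arrays) and KO-5 for housekeeping genes (0.0773, against -0.05 to -0.04). Among WT arrays, WT-8 was apart for cartilage and bone genes (0.0556), WT-7 for midbrain and isthmus genes (0.19) and WT-5 for housekeeping genes (0.11).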

How the results depend on the processing

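The count of 108 lower genes was 100 to 140 on leaving out each KO array, 171 without normalization, 331 at a limit of 0.5 and 22 at a limit of 2. The count of 2 higher genes was 2 to 6 on leaving out each array, 0 without normalization, 1 with the mean of probes, 4 against KO-5 alone, 9 against KO-4 alone, 137 at 0.5 and 0 at 2. The meninges median of -0.44 was -0.64 without normalization, -0.77 with a filter on dim genes, -0.29 against KO-5 alone and -0.47 to -0.39 on leaving out each array. The vessels median of -0.30 was -0.50, -0.42 and -0.21 under the first 3 of these, -0.19 with the mean of probes, -0.36 when centred on all genes and -0.29 to -0.25 on leaving out each array. The macrophages median of -0.30 was -0.50, -0.43 and -0.15, and -0.35 to -0.26 on leaving out each array. The neurons median of 0.18 turned to -0.0285 without normalization, and was 0.0755 against KO-5, 0.12 when centred and 0.17 to 0.19 on leaving out each array. Gad2 (-0.0204), Cldn14 (-0.0726), Hapln1 (-0.0611), Cenpe (-0.0025) and Arc (-0.045) also turned below 0 without normalization. In limma, 84 genes rose across WT arrays, 127 without normalization, 9 with Lum in place of Col1a1 and 13 to 82 on leaving out each array. Of falling genes there were 0, but 1 after quantile normalization, 1 without normalization, 1 with Lum, 2 with the array numbers as a term, 1 with trend and robust settings, 1 at an adjusted p of 0.1 and 0 to 2 on leaving out each array. The cause of these shifts was not tested. The comparisons with KO-4 and centring were chosen after seeing the data. Dim probes limit what 3 and 4 arrays can resolve. No paired analysis was possible because matrix-poor arrays 6 to 8 and other KO arrays 2 to 5 share no replicate number and their comparison has no test.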
